A study of Mus musculus with 9 samples.

Results

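Genes of the sarcomere and of skeletal muscle were followed on cDNA arrays of tail skin from a mouse model of acute lymphedema. Members were the array features whose annotated gene symbol belongs to the troponin, myosin heavy chain, myosin light chain, myosin binding protein, alpha-actinin, myozenin, myomesin, calsequestrin or sarcoplasmic reticulum calcium pump families, or is one of a short list of muscle genes that runs from Acta1, Actc1 and Des to Ttn and Pygm. This rule found 40 genes on 111 features, out of 10554 genes that the annotation names on 42624 features. A value on all 9 arrays was held by 92 of these features and 35 of these genes, against 8644 genes in all, and these 35 genes entered the tests. The other 5 were Actn3, Pvalb, Mb, Mybpc3 and Myh7. Another 3 features carry the name of a member together with that of a second gene (Myh7b with Trpc4ap, and Neb with Rif1) and were left out.

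All mice were female hairless SKH-1 mice that entered the study at 3 weeks of age and were killed on day 14. Lymphedema skin came from tails in which the skin was cut around the tail and the lymph trunks, stained with methylene blue, were then cauterized. Sham skin came from tails with the same cut and dye but no cautery. Normal skin came from tails without surgery. RNA of each state was taken from 9 mice in 3 pools of 3 mice, and each pool was hybridized once against reference RNA of whole late-stage embryos, so that n = 3 in every group and this number limits the precision. The skin distal to the cut was peeled bluntly off the tail before RNA isolation, and how much muscle or tendon came with it is not recorded in the sources used here.

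The sarcomere is the contractile unit of striated muscle. Thin filaments of actin, on which troponin senses calcium, slide along thick filaments of myosin, and both are held in register by the Z-disc, the M-line and the giant protein titin. Fast and slow fibers build this machine from different isoforms of the same families, and embryonic muscle uses further ones. Relatives of the myosins, myosin light chains and alpha-actinins work outside striated muscle, where they drive the contraction of smooth muscle and the crawling, tension and wound closure of other cells. The tail of the mouse holds skeletal muscles around its vertebrae, whose tendons run the length of the tail. Whole late embryos contain much developing muscle and heart, so a low ratio of adult skin over embryo is not by itself a statement on the skin.

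The deposited value of a feature is a log ratio of both dyes, taken here as log2, although its base is not stated. Labels and methods disagree on the dyes, with tail skin labeled as Cy5 in the sample labels and as Cy3 in the study's methods. The direction was read from genes typical of embryos, of which 26 to 28 of 27 or 28 lay above the array median in the deposited values of each array, and from genes of adult skin, of which 9 or 10 of 13 lay below it. On this basis the deposited value was taken as embryo over skin, against what the labels' dyes imply, and all signs were turned. In what follows, a value is the centered log2 ratio of skin over embryo, and a positive difference means more RNA in the group named first. Any 2 arrays correlated at 0.818 to 0.96 over features, and 1.34% to 12.6% of values were missing on an array. The missing values fell into a pattern: 186 features had values on normal arrays 1 to 3 and lymphedema array 1 and on none of the other 5, and 1 feature had the reverse. These 2 sets of arrays are called set A and set B. Since all normal arrays are in set A and all sham arrays in set B, a difference of sham from normal skin and a difference of the sets cannot be told apart except through the lymphedema arrays, which fall in both.

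Upstream DNA is shown for 6 members on which the results turn, as 250 bases before the annotated start from RefSeq on GRCm38.p6, 5′ to 3′ on the gene's strand. The first 3 encode proteins of fast fibers and are the fast members with an entry in the table. They show the E-box, the letters CANNTG, which is the core bound by MyoD and other myogenic factors. Capitals mark each match to the E-box. Atp2a1 lies on the minus strand at chr7:126463074-126463323, Myl1 on the minus strand at chr1:66945057-66945306 and Tnnc2 on the minus strand at chr2:164779735-164779984.
Atp2a1: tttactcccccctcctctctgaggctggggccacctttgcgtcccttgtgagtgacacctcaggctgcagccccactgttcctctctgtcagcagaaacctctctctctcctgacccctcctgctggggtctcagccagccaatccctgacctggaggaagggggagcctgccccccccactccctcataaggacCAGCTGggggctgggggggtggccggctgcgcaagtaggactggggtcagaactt
Myl1: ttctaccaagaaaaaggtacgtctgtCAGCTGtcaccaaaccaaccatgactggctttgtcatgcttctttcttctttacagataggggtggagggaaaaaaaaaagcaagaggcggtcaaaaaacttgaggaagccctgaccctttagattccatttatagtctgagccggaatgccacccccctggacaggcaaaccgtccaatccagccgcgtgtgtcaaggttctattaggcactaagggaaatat
Tnnc2: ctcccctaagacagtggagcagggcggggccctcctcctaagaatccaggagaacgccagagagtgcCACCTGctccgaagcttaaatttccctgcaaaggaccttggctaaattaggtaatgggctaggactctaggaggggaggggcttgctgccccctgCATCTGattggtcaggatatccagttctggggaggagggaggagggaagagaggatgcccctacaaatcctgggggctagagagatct
The other 3 carry a CArG box, which is bound by serum response factor, a regulator of actin and contractile genes in muscle and in other cells. It reads CC, then 6 bases that are each A or T, then GG. Capitals mark it. Myl6 lies on the minus strand at chr10:128493010-128493259, Myl9 on the plus strand at chr2:156775214-156775463 and Actc1 on the minus strand at chr2:114052876-114053125.
Myl6: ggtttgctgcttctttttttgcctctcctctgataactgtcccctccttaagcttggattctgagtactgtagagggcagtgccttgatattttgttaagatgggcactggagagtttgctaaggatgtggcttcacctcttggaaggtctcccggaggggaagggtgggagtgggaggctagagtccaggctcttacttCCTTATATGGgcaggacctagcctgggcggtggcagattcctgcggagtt
Myl9: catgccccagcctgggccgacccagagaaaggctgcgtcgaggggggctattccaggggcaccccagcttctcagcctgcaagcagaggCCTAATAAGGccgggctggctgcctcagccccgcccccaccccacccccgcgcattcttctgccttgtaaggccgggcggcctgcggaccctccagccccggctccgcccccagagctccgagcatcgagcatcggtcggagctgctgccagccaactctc
Actc1: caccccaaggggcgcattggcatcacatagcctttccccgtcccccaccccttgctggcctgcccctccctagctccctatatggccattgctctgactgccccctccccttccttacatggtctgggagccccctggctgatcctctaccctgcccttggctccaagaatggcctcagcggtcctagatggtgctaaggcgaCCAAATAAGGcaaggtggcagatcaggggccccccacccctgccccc
Of the 35 genes, 31 had an entry, some with several starts, and both strands of the 250 bases were searched. A CArG box was found in 7 of the 31 (22.6%), against 1.62% of the 27025 genes in the table. The 7 matches in gene order were CCAAATATGG in Acta1, CCAAATAAGG in Actc1, CCATTTATGG in Ldb3, CCTTTTATGG in Myl3, CCTTATATGG in Myl6, CCTTATTTGG in Myl7 and CCTAATAAGG in Myl9. They include genes of striated fibers and, with Myl6 and Myl9, light chains of nonmuscle and smooth muscle myosin. The E-box, a short and common motif, was found in 24 of the 31 (77.4%), against 69.3% of all genes. The MEF2 box was found in Myh8 and Ttn, or 6.45% of the members, against 3.42% of all genes. In the 6 windows shown the E-box and the CArG box did not occur together, but those of Myl6, Myl9 and Actc1 were chosen for their CArG box. Over all starts of a gene, Acta1, Myl3, Myl6 and Myl7 had both motifs, in the same window or in different ones. A match is a string of letters in a window and is not a bound site.

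Across the 35 tested members, tail skin stood well below the embryo reference. The median member was at −2.04, −1.84 and −1.82 on the lymphedema arrays, at −2.23, −2.27 and −1.45 on the sham arrays and at −2.19, −2.38 and −2.30 on the normal arrays. The median of all genes lay between −0.11 and −0.01 on every array. The 5 fast members (Tnnc2, Tnni2 and Tnnt3, the calcium-binding, inhibitory and tropomyosin-binding subunits of fast troponin, Myl1, the alkali light chain of fast myosin, and Atp2a1, the calcium pump of the fast fiber's sarcoplasmic reticulum) had medians of −5.45, −5.65 and −4.54 in lymphedema skin, −4.93, −3.98 and −2.90 in sham skin and −4.99, −5.14 and −5.43 in normal skin. The 3 developmental members, the embryonic and perinatal myosins Myh3 and Myh8 and the atrial and embryonic light chain Myl4, had medians between −4.80 and −4.02 on all arrays. The 8 slow or cardiac members had a higher ratio to the embryo, at −1.85, −1.70 and −1.68 in lymphedema skin, −2.06, −1.67 and −1.06 in sham skin and −2.15, −2.16 and −2.01 in normal skin. The median of the 8 paralogs with roles outside striated muscle was near the embryo's level, at 0.08, 0.11 and −0.11 in lymphedema skin, −0.25, −0.07 and 0.16 in sham skin and −0.32, −0.54 and −0.44 in normal skin. Within this group Myh10 and Myl9 were well below the embryo, with normal means of −2.47 and −1.89. These are ratios and not amounts, so one gene's level is not set against another's.

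Fast fiber genes were high on sham array 3, and sham array 2 lay between the other sham arrays for all 5 of them. Tnnc2 stood at −4.96, −3.58 and −2.90 on sham arrays 1, 2 and 3, against −5.43, −5.53 and −5.96 on the normal arrays, and the groups did not overlap. Its mean was −3.81 ± 1.05 in sham skin and −5.64 ± 0.28 in normal skin (SD, n = 3 each), a difference of 1.83 (SE 0.45), or 3.54-fold, with an adjusted p of 0.297 in limma. In lymphedema skin Tnnc2 was at −5.57, −5.65 and −4.60, with the third array above the other two. Tnnt3, averaged over 5 clones, stood at −4.57, −3.98 and −2.81 in sham skin against −4.99, −5.14 and −5.01 in normal skin. Its difference was 1.26 (SE 0.35, adjusted p = 0.356 in limma), and the normal arrays spanned a far narrower range than the sham arrays. The 5 Tnnt3 clones were all positive but unlike in size, with sham differences of 0.06 to 1.99. In the clone with the smallest difference, sham arrays 1 and 2, at −4.32 and −4.03, lay below all normal arrays. The third subunit, Tnni2, was at −4.93, −4.36 and −2.93 in sham skin against −3.92, −4.95 and −5.43 in normal skin, where the groups overlapped.

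Myl1 showed the same order of arrays, with −5.67, −4.74 and −3.49 in sham skin against −6.18, −5.77 and −6.43 in normal skin, and no overlap. The difference was 1.49 (SE 0.48, adjusted p = 0.434 in limma). Atp2a1 stood at −3.50, −2.91 and −1.31 in sham skin against −3.53, −3.40 and −3.69 in normal skin, and sham array 1 lay within the normal range. Its clones had the same order of sham arrays, with −3.91, −2.90 and −1.18 for one and −3.09, −2.93 and −1.44 for the other on sham arrays 1 to 3. They differed on sham array 1, which lay below all normal arrays in the first clone and above all of them in the other. Tcap, the small protein that caps titin at the Z-disc, was at −0.70, −0.50 and 0.67 in sham skin against −1.04, −2.04 and −2.30 in normal skin. Tcap differed by 1.62 (SE 0.44, adjusted p = 0.343 in limma), and its lowest sham array was above its highest normal array.

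**Figure D1:**
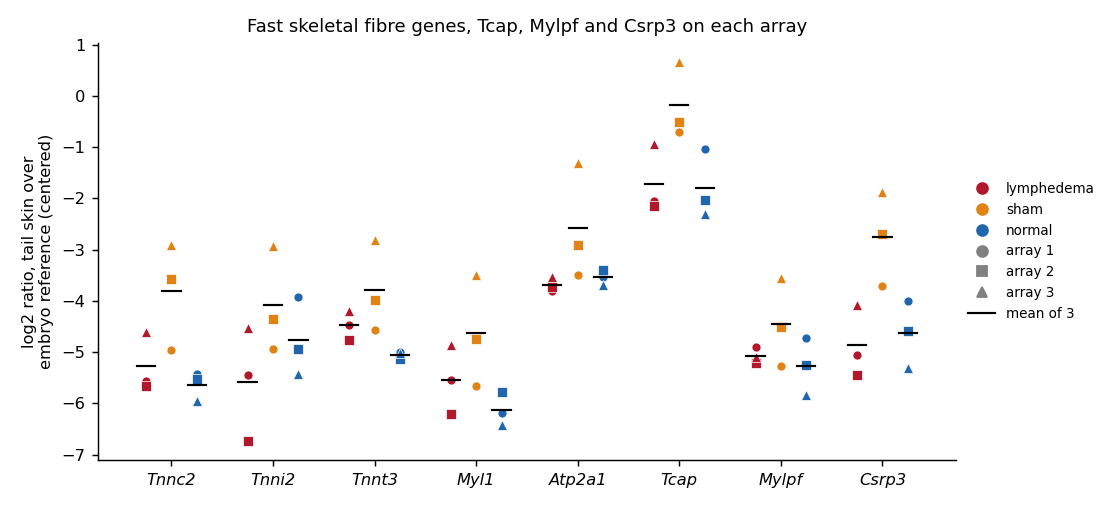
Centered log2 ratio of tail skin over embryo reference (y axis) for the 5 fast members, Tcap and the muscle genes Mylpf and Csrp3 (x axis), by array of lymphedema, sham and normal skin, with black bars at the means of 3. The triangle of sham array 3 is the highest of the 9 points for each of the 8 genes.

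No member passed the test between sham and normal skin. limma called 0 of the 35 at an adjusted p under 0.05, against 0.0% of all 8644 genes, and the lowest adjusted p among members was 0.297. At an unadjusted p under 0.05 there were 11 members, or 31.4% of them beside 7.92% of all genes. SAM at 5% called 0 members and 0.231% of all genes as higher. An exact permutation test of 3 against 3 arrays cannot go below 0.10. Sham arrays lay above all normal arrays for 11 members, where 9.71% of all genes did so, and below them for none, where 3.08% of all genes did. The median difference was 0.392 over the members and 0.0581 over all genes. One clone of Tnnt3 passed in the test over 30702 features, which called 0.0195% of features as higher. This clone (feature 18589) read −3.67, −3.81 and −2.93 in sham skin and −5.47, −5.61 and −5.27 in normal skin, a difference of 1.98 (SE 0.29, adjusted p = 0.0458 in limma). The clone was called in 5 of 16 alternatives and not when any normal array, sham array 1 or 2 or lymphedema array 2 was left out, over which its adjusted p in limma ran from 0.00687 to 1.0.

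One array weighed heavily on this contrast. Sham array 3 was the highest of all 9 arrays for 20 of the 35 members (57.1%), against 14.4% of all genes. It exceeded both other sham arrays by over 1 on the log2 scale for 8 members (22.9%), against 2.16% of all genes. All 5 fast members were highest there, with a median excess of 1.71 over the mean of sham arrays 1 and 2. Of the slow or cardiac members 4 of 8 were highest on it, and of the developmental ones 0 of 3. Without sham array 3, the median sham difference was 0.156 over all members. The 5 fast members had a median of 0.773 without it and 1.26 with it. Tnnc2 still differed by 1.37, Tcap by 1.19 and Tnni2 by 0.12. With the array set as a block the fast median was 1.27. That fit takes the difference of the sets from the lymphedema arrays alone, of which only array 1 is in set A.

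Markers of some other cell types were also high on sham array 3. The 7 measured fibroblast genes of 10 had a median of −1.44, −1.74 and −0.50 on sham arrays 1 to 3, against −1.42, −1.51 and −1.90 on the normal arrays. The 7 macrophage genes of 11 stood at −0.73, −0.23 and 0.74 in sham skin against −0.33, −0.36 and −0.26 in normal skin. The 6 neutrophil genes of 8 stood at −0.81, −0.34 and 1.04 in sham skin against −1.41, −1.33 and −1.12 in normal skin. The 9 keratinocyte genes of 14, which mark the epidermis, were above the embryo on all arrays, at 2.18, 2.11 and 1.66 in lymphedema skin, 2.31, 2.52 and 2.10 in sham skin and 1.88, 2.04 and 1.99 in normal skin, with sham array 3 the lowest of its group. Of 7 tendon genes 2 were measured, with medians of 0.58, 0.81 and 0.92 in lymphedema skin, −0.002, −0.08 and 1.32 in sham skin and −0.68, −0.84 and −0.74 in normal skin. The part of these cell types in the muscle values was not tested. In RNA of whole tissue, fewer cells of a type and less RNA per cell cannot be told apart.

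**Figure D2:**
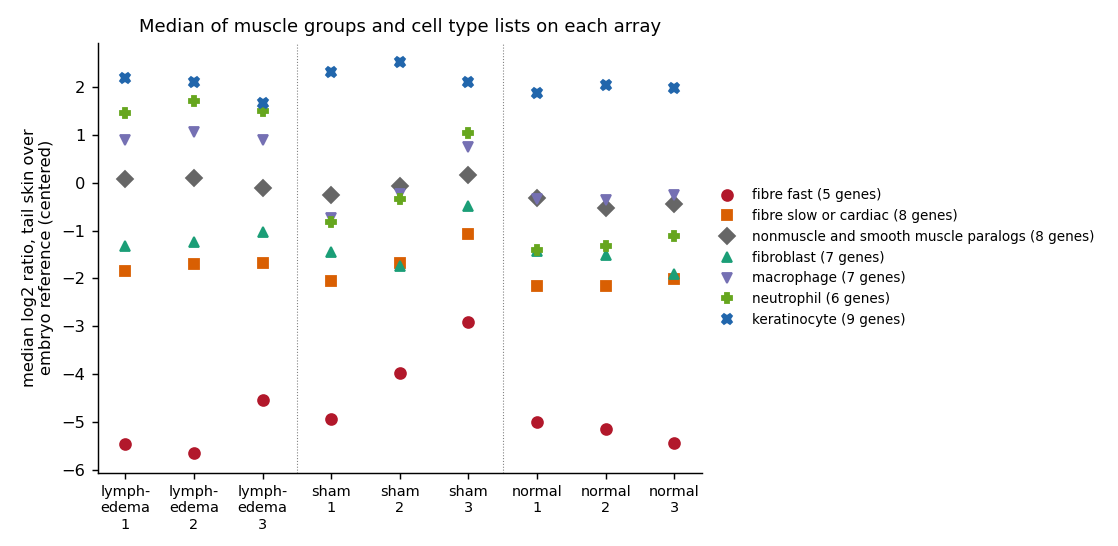
Median centered log2 ratio of tail skin over embryo (y axis) on each array (x axis) for 3 muscle groups and 4 cell type lists. The fast group is highest on sham array 3 at −2.90, where the macrophage and neutrophil lists also lie above the other sham arrays, at 0.74 and 1.04.

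Genes outside the rule showed which other transcripts ran with the fast group. Over the 9 arrays, the mean of the 5 fast members ran between −5.42 on lymphedema array 2 and −2.69 on sham array 3. Among members outside the fast group, Tcap had a Pearson r of 0.928 with this mean and Myl2, the regulatory light chain of slow and ventricular muscle, 0.809, while Tnnt2 had 0.007. The 5 genes outside the rule with the highest r were Kpna6 (0.956), Habp2 (0.953), Csrp3 (0.945), Lmnb2 (0.932) and Il11 (0.924). Csrp3, the muscle LIM protein of the Z-disc, had values of −3.71, −2.69 and −1.87 in sham skin, against −4.01, −4.58 and −5.31 in normal skin. Kpna6, which encodes an importin, had a span of less than 0.4, so its likeness is one of order and not of size. The arrays share a reference and 1 of them stands apart, so these r values are a description without a test.

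Other skeletal muscle genes, 48 measured from a list of 87, had smaller sham differences at the median. This median of sham minus normal skin was 0.126, with 31 of 48 positive and 0 called in limma, and 17 were highest on sham array 3. Of all 8644 genes 5155 were positive, and 14.4% were highest on sham array 3. The 5 with the largest sham differences were Csrp3 (1.88), Srl (1.38), Cryab (1.09), Flnc (0.96) and Lmod2 (0.90). Srl encodes sarcalumenin of the sarcoplasmic reticulum, Cryab a small chaperone of the Z-disc, Flnc muscle filamin and Lmod2 a nucleator of thin filaments. Their adjusted p in limma ran from 0.215 for Lmod2 to 0.426 for Srl. Mylpf, the regulatory light chain of fast myosin, was at −5.27, −4.51 and −3.54 in sham skin and −4.73, −5.26 and −5.84 in normal skin, where the groups overlapped.

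Between lymphedema and normal skin, 1 member passed and it is not a gene particular to striated muscle. Myl6, the essential light chain of nonmuscle and smooth muscle myosin, stood at 0.30, 0.60 and −0.01 on the lymphedema arrays, against −0.52, −0.57 and −0.45 on the normal arrays. The sham arrays read −0.15, −0.03 and 0.20, above all normal arrays and overlapping the lymphedema arrays. Lymphedema skin was at 0.29 ± 0.30 and normal skin at −0.51 ± 0.06 (SD, n = 3 each), a difference of 0.80 (SE 0.19), or 1.75-fold, with an adjusted p of 0.0445 in limma. The 4 Myl6 clones were all positive, with differences of 0.32 to 1.04. This 1 of 35 members called as higher is 2.86%, against 2.83% of all genes, and 0 members were called as lower, against 0.602%. The Myl6 call was lost in each fit that left out a normal or a lymphedema array, and without sham array 2, and its adjusted p in limma ran from 0.0256 to 0.547 over the alternatives. Without sham array 3, which enters this contrast only through the shared estimate of spread, 6 members were called, namely Myh9, Myh10, Myl3, Myl6, Myl9 and Myl12b, while the count over all genes was 623 in that fit against 297 with all arrays.

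Other motor and light chain genes outside striated muscle also gave positive differences, without passing. Myh9, the heavy chain of nonmuscle myosin IIA, was at 1.63, 1.17 and 1.27 in lymphedema skin, against −0.01, 0.39 and 0.58 in normal skin. Its difference of 1.04 (SE 0.27), or 2.05-fold, had an adjusted p of 0.064 in limma. Myl12b, a regulatory light chain of nonmuscle myosin read by 8 clones, was at 0.13, 0.19 and 0.11 in lymphedema skin against −0.33, −0.51 and −0.47 in normal skin. It differed by 0.58 (SE 0.16, adjusted p = 0.0755 in limma), and all 8 clones were positive. Myl9, the regulatory light chain of smooth muscle myosin, was at −1.30, −0.85 and −1.16 in lymphedema skin and −1.69, −1.81 and −2.17 in normal skin, a difference of 0.79 (SE 0.23, adjusted p = 0.0859 in limma). Myh10, nonmuscle myosin IIB, was at −1.85, −1.71 and −1.82 in lymphedema skin and −2.27, −2.71 and −2.43 in normal skin, a difference of 0.68 (SE 0.22, adjusted p = 0.113 in limma). In Myl6, Myh9, Myl12b, Myl9 and Myh10 every lymphedema array exceeded every normal array, which held for 23.6% of all genes.

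The remaining paralogs were mixed. Actn1, the alpha-actinin of stress fibers and adhesions, was at 0.02, 0.03 and −0.22 in lymphedema skin against −0.23, −0.60 and −0.43 in normal skin, narrowly without overlap. Lymphedema array 3 of Actn1 was at −0.216 and normal array 1 at −0.233. Of its clones, 1 differed by −0.82 and the others by 0.53 to 0.94. Its relative Actn4 was at 0.62, 1.2 and 0.30 in lymphedema skin against 0.59, 0.69 and 0.63 in normal skin, where the groups overlapped. Atp2a2, the calcium pump of slow muscle and of most other cells, was the single member whose lymphedema arrays all lay below the normal ones. It was at −0.46, −0.57 and −0.32 in lymphedema skin against −0.32, −0.15 and −0.22 in normal skin. The margin was narrow, with lymphedema array 3 at −0.324 and normal array 1 at −0.318. The Atp2a2 difference of −0.22 turned to 0.80 with 1 clone per gene, the clone with the highest mean ratio of skin over embryo. Over the 8 paralogs the median difference was 0.629, with 7 positive, 1 called, 6 separated upward and 1 downward. Over all genes the median was 0.103, with 5355 of 8644 positive, 2.83% called as higher, 23.6% separated upward and 10.2% downward. Inside set A, lymphedema array 1 exceeded the normal mean by a median of 0.577 over these genes. Inside set B, lymphedema arrays 2 and 3 exceeded the sham mean by a median of 0.242. With the array set as a block, the contrast with normal skin rests on lymphedema array 1 alone, since the other lymphedema arrays are in set B. It therefore repeats the values inside set A, with 1.31 for Myh9 and a median of 0.577 over the 8 paralogs. In that fit 0 of all 8644 genes were called.

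**Figure D3:**
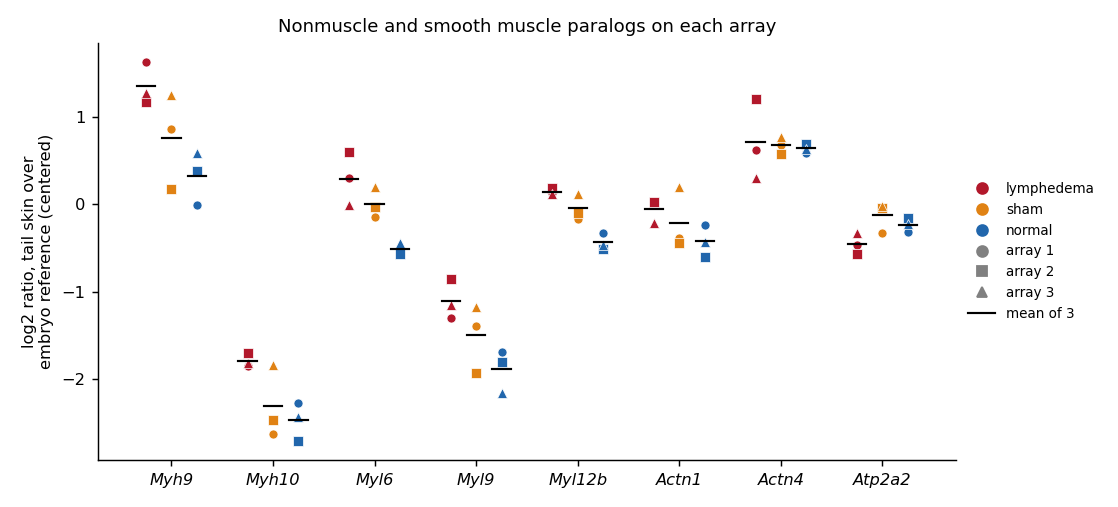
Centered log2 ratio of tail skin over embryo (y axis) for the 8 nonmuscle and smooth muscle paralogs (x axis), by array of lymphedema, sham and normal skin, with black bars at the means of 3. Lymphedema arrays lie above all normal arrays for Myh9, Myh10, Myl6, Myl9, Myl12b and, narrowly, Actn1, and narrowly below them for Atp2a2.

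Markers of inflammatory cells and of smooth muscle are given beside these paralogs. The macrophage list stood at 0.89, 1.07 and 0.90 in lymphedema skin against −0.33, −0.36 and −0.26 in normal skin, and the neutrophil list at 1.46, 1.72 and 1.51 in lymphedema skin against −1.41, −1.33 and −1.12 in normal skin. Medians of the 7 measured smooth muscle genes of 12 were −1.03, −0.43 and −0.57 in lymphedema skin and −0.85, −1.25 and −1.35 in normal skin, and those of the fibroblast list were −1.33, −1.23 and −1.03 in lymphedema skin and −1.42, −1.51 and −1.90 in normal skin. The 2 tendon genes given above were both separated upward from normal skin, with a median difference of 1.52 and 1 called. Of all genes 23.6% were separated upward and 2.83% called as higher. The list of 7 tendon genes includes Tnc, tenascin C, which the paper takes as a marker of acute inflammation. How much of the muscle, Myh9 and light chain values these cells account for was not tested.

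Members of striated muscle mostly had positive lymphedema differences of small size. Among the 27 members other than the paralogs, 22 were positive, 9 were separated upward and 0 downward, and 0 were called, with a median of 0.363. Of all 8644 genes 5355 were positive, with a median of 0.103. Over all 35 members the median of 0.399 shrank to 0.112 when arrays were scaled to a common median absolute deviation and to 0.042 after quantile normalization, and the median of the 5 fast members, 0.363, turned to −0.244 and −0.023 under these settings. This fast median was 0.026 without lymphedema array 3, 0.203 without normal array 3 and 0.553 without lymphedema array 2. It was 0.067 with the array set as a block, a value that rests on lymphedema array 1 alone. Across all 35 members 15 were separated upward, or 42.9% beside 23.6% of all genes, and 1 downward, beside 10.2%. At an unadjusted p under 0.05 there were 10 members (28.6%), against 20.5% of all genes. SAM at 5% called 13 members as higher (37.1%), against 18.8% of all genes, and 0 as lower, against 2.38%. Of the 13, 5 were paralogs (Myh9, Myh10, Myl6, Myl9 and Myl12b) and 8 were members outside the paralog group (Actc1, Myh6, Myl10, Myl2, Myl3, Pygm, Tnnt2 and Tnnt3).

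Of the 8 thin filament genes, Actc1, Tnnt2 and Tnnt3 had all lymphedema arrays above all normal arrays, while Acta1, Tnnc1, Tnnc2, Tnni2 and Tnni3 overlapped. Actc1, cardiac actin, was at −2.14, −1.84 and −1.84 in lymphedema skin against −2.43, −2.38 and −2.35 in normal skin, a difference of 0.45 (SE 0.17, adjusted p = 0.178 in limma). Of its 9 clones, 1 differed by −0.64 and the others by 0.13 to 0.92. The Actc1 difference turned to −0.08 without the features of lowest ratio. Tnnt2, cardiac troponin T, was at −2.19, −2.54 and −2.46 in lymphedema skin against −2.90, −2.74 and −2.83 in normal skin, a difference of 0.43 with an adjusted p of 0.175 in limma. Its sham arrays, at −2.64, −2.79 and −2.59, lay below all lymphedema arrays, the single member separated upward from sham skin. Acta1, skeletal actin, overlapped between the states, at −2.97, −2.43 and −2.20 in lymphedema skin and −2.36, −3.03 and −3.42 in normal skin. For the fast troponins Tnnc2 and Tnni2 the intervals were wide. The difference of lymphedema from normal skin was 0.36 for Tnnc2, with a 95% interval of −0.62 to 1.35, and −0.81 for Tnni2, with a 95% interval of −2.12 to 0.51.

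In the thick filament, Myl3, the essential light chain of slow and ventricular myosin, had the largest lymphedema difference. It stood at −2.93, −2.71 and −2.78 in lymphedema skin, −2.86, −3.22 and −2.22 in sham skin and −3.36, −3.84 and −3.51 in normal skin. Both contrasts were near 0.8, at 0.76 for lymphedema (adjusted p = 0.111 in limma) and 0.80 for sham (adjusted p = 0.397 in limma), and both share the normal arrays. Myl2 was at −1.74, −1.61 and −1.81 in lymphedema skin, −1.94, −1.41 and −0.86 in sham skin and −2.22, −2.10 and −2.12 in normal skin. Of the developmental genes, Myl4 differed by 0.64 and Myh8 by 0.58 between lymphedema and normal skin, with overlapping groups, and Myh8 ranged widely, at −6.23, −6.99 and −4.77 on the sham arrays. Mybpc1, slow myosin binding protein C, gave a difference of −0.43, with overlap.

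At the Z-disc, Des (desmin, the intermediate filament of muscle) and Ldb3 (a PDZ-LIM protein) differed by 0.40 and 0.36 between lymphedema and normal skin. Their adjusted p in limma was 0.509 and 0.315. Ttn, titin itself, was at −4.32, −5.19 and −4.10 in lymphedema skin, −5.10, −4.49 and −3.36 in sham skin and −5.38, −4.56 and −4.28 in normal skin, with wide overlap. In energy metabolism, Pygm, muscle glycogen phosphorylase, was separated from normal skin in both operated states, at −2.84, −2.68 and −2.71 in lymphedema skin and −2.85, −3.02 and −2.07 in sham skin against −3.08, −3.48 and −3.28 in normal skin. Eno3, muscle enolase, was at −1.37, −1.15 and −1.61 in lymphedema skin and −1.95, −2.02 and −1.0 in normal skin, and one of its 3 clones read 0.69 on normal array 3, against −2.11 and −1.99 on normal arrays 1 and 2.

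**Figure D4:**
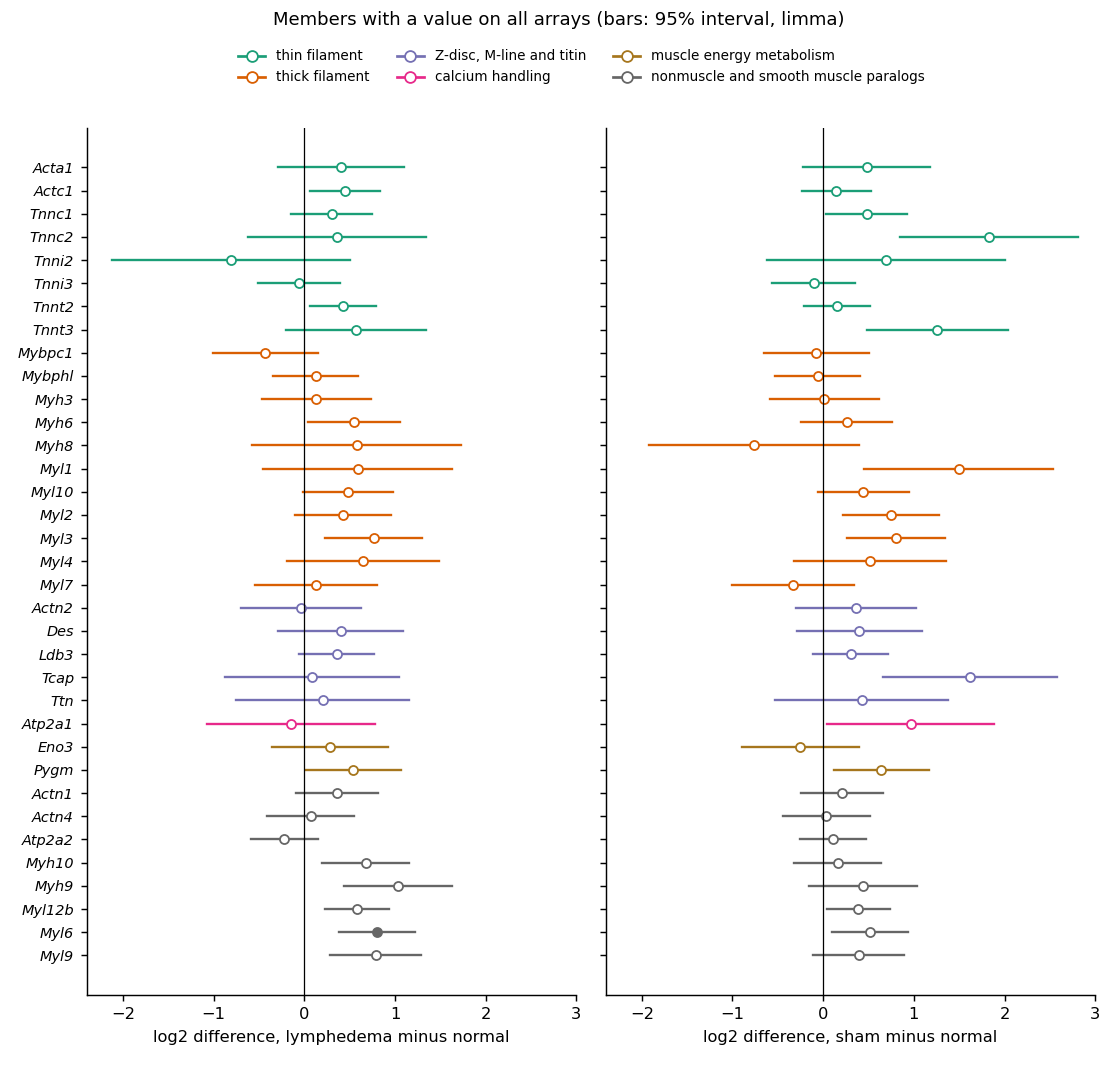
Differences on the log2 scale (x axes) for the 35 tested members (rows, colored by role), lymphedema minus normal skin on the left and sham minus normal skin on the right, with 95% intervals from limma; a filled point passed at an adjusted p under 0.05. Myl6 on the left is the one filled point, and the largest differences on the right are Tnnc2 at 1.83, Tcap at 1.62 and Myl1 at 1.49.

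From the wider list of 48 skeletal muscle genes, 2 passed as higher between lymphedema and normal skin, where 2.83% of all genes did. Trdn, triadin of the calcium release complex, was at −0.05, 0.19 and −0.26 in lymphedema skin against −1.37, −1.31 and −1.29 in normal skin, a difference of 1.28 (SE 0.20, adjusted p = 0.0138 in limma). Smpx, a small protein of striated muscle, was at −1.83, −2.26 and −1.79 in lymphedema skin against −3.18, −2.75 and −2.95 in normal skin, a difference of 1.0 (SE 0.19, adjusted p = 0.0274 in limma). Trdn and Smpx were each read by 1 clone. Their sham arrays also lay above all normal arrays, as in 9.71% of all genes, by 0.83 for Trdn and 0.71 for Smpx, neither called. Between lymphedema and sham skin neither was called (adjusted p = 0.650 and 0.745 in limma). The next largest differences of lymphedema from normal skin were Sln at 0.95, Pdlim3 at 0.94 and Xirp1 at −0.92, none called. Sarcolipin (Sln) inhibits the calcium pump, Pdlim3 is a Z-disc LIM protein and Xirp1 binds actin at cell contacts of muscle. The list had a median of 0.354 with 38 of 48 positive, beside 5355 of all 8644 genes.

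Set against sham skin, lymphedema skin had no muscle gene past the threshold. limma called 0 of the 35, against 0.0116% of all genes in each direction, with a lowest adjusted p of 0.470, and SAM called 0. Of single clones 0 of 92 were called, where 0.00326% of all features were lower. At an unadjusted p under 0.05 there were 7 members of 35, against 7.44% of all genes. The median difference over the members was 0.034, and 20 were positive, beside 5094 of all 8644 genes. This median turned to −0.268 after scaling to a common median absolute deviation, where Tnnc2 was called (−2.15), and to −0.202 after quantile normalization. The means of the 5 fast members were all lower in lymphedema skin, with a median difference of −1.11, which was −0.483 without sham array 3. Across the 35 members, 1 was separated upward and 2 downward, against 6.63% and 3.69% of all genes. Tcap, at −2.04, −2.15 and −0.93 in lymphedema skin against −0.70, −0.50 and 0.67 in sham skin, differed by −1.53 (SE 0.44, adjusted p = 0.47 in limma), and Atp2a1, at −3.81, −3.73 and −3.53 in lymphedema skin, was the other one below every sham array. Within set B, lymphedema arrays 2 and 3 differed from the sham mean by −1.31 for Tnnc2 and −1.37 for Tcap. These rest on the same sham arrays as the contrast with normal skin.

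Clones of one gene did not always read alike, which bears on every averaged value above. The mean ratio over 9 arrays differed between clones by 5.53 for Ldb3, 4.99 for Mybpc1, 4.81 for Actn2 and 4.15 for Actc1. One Ldb3 clone read 2.63, 2.26 and 1.27 in lymphedema skin and another −3.36, −3.46 and −3.07. Clones of Acta1, Myl1 and Atp2a1 were within 0.10, 0.13 and 0.12 of each other. In the feature test between lymphedema and normal skin 4 member clones were called as higher and 1 as lower, of 92, where 2.3% and 0.635% of all features were. The 4 were clones of Myl6 (0.99), Myh10 (0.95), Actc1 (0.92) and Eno3 (1.12), with adjusted p of 0.0402 to 0.0461 in limma. The Myl6 clone was called in 6 of 17 alternatives, that of Myh10 in 3 of 16, that of Actc1 in 4 of 16 and that of Eno3 in 6 of 16, and their adjusted p in limma reached 0.365 to 0.408. All 4 calls were lost without any one of the normal or lymphedema arrays. The lower clone was 1 of 8 of Atp2a2, with −0.52, −1.05 and −0.43 in lymphedema skin and 0.57, 0.74 and 0.65 in normal skin. It differed by −1.32 (adjusted p = 0.0224 in limma), while the other 7 clones differed by −0.44 to 0.80. A spotted cDNA can also pair with RNA of close relatives, and within the actin, myosin and troponin families the share of such signal was not measured.

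**Figure D5:**
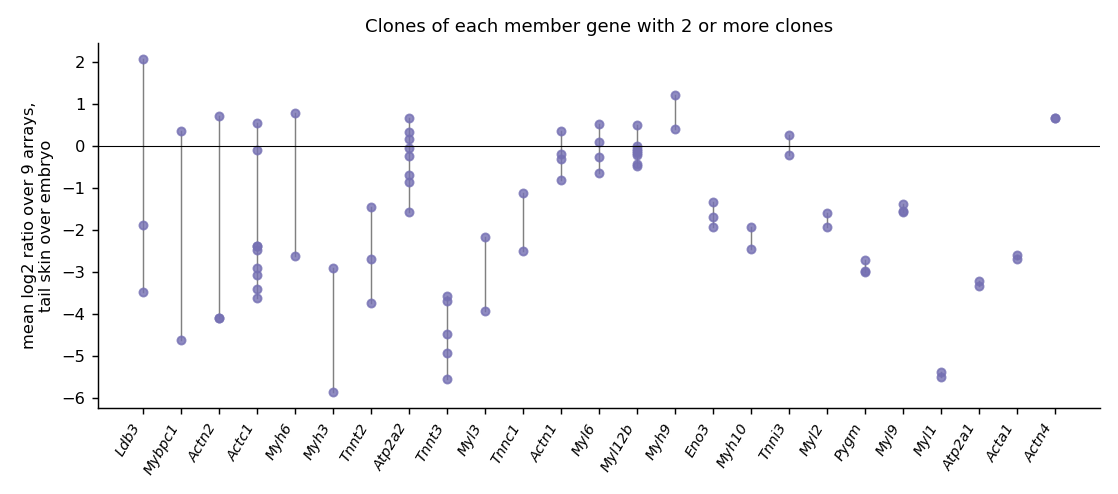
Mean log2 ratio of tail skin over embryo over 9 arrays (y axis) for each clone (points) of the members with more than 1 clone (x axis, ordered by their spread, gray lines). Ldb3, Mybpc1, Actn2 and Actc1 spread over 4.15 to 5.53, and Acta1, Atp2a1 and Actn4 by 0.12 or less.

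The 5 members without a complete set of arrays gave partial values. Mb, myoglobin, was read on 8 arrays, at 0.17, 0.36 and 0.76 in lymphedema skin, 0.25 and 0.87 on sham arrays 2 and 3, and 0.19, 0.35 and 0.20 in normal skin, so that sham array 3 was again the highest. Pvalb, parvalbumin, a calcium buffer of fast fibers, was read at 2.10 on sham array 3 but also at 2.09 on normal array 1. Myh7, slow myosin, was between −0.45 and 0.19 on its 8 arrays, and Actn3, the alpha-actinin of fast fibers, was read on 5 arrays with none of them sham array 3. Mybpc3, cardiac myosin binding protein C, had 3 clones that were each read on 7 or 8 arrays.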

How the data were processed

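RNA of 9 pools of tail skin, 3 for each state, was hybridized to cDNA arrays with 2 colors. The authors extracted features with GenePix software, subtracted background and normalized the dyes. The deposited values are log2 ratios, 1 per feature and array (log base read as 2, not stated). The filter on reference signal, the imputation and the intensities were not used here. Of 42624 features, 20678 are named by 1 gene, 953 by several and 20993 by none, and 26 values were read as null. Deposited medians were −0.121 to −0.002.

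Signs were turned, each array was centered on its median and clones of a gene were averaged. limma 3.58.1 in R 4.3.3 (lmFit and eBayes, group as the only term, all 9 arrays) was run on 30702 features and 8644 genes complete on 9 arrays, with Benjamini-Hochberg adjustment over all of them and calls under 0.05. SAM at 5% used 20 permutations. Plots were made in Python 3.11.15 (matplotlib 3.10.9). In simulated data for lymphedema against normal on 8644 genes, limma recovered 73.8% of changes of 1 on the log2 scale and 100% at 2 and 3, with 6 false calls of 185, and 172 of 173 SAM calls were true. The simulated noise was independent between genes and equal in all groups, with no array sets and no array that stands apart. These rates therefore do not carry over to the real arrays.

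Named members were those called in any test, up to 4 largest lymphedema and 3 largest sham differences per role, and the 5 widest ranges over sham arrays. Pathway genes were named if called or among the 5 largest, and similar genes by r over the 9 arrays. Acta1, Actn1, Actn2, Actn3, Actn4, Mb, Mybpc1, Mybpc3, Myh3, Myh6, Myh7, Myl10, Myl12b, Myl2, Myl7, Mylpf, Pvalb, Tnnc1 and Tnni3 were named after their values were seen. Members and lists were chosen with earlier results of these data known. The alternatives tried were uncentered arrays, quantile normalization, arrays scaled to a common median absolute deviation, a looser completeness rule (2 of 3 values in each group), removal of the features with the lowest ratios, arrays of the 2 groups only, SAM, blocks for the replicate number and for the array set, 1 clone per gene, and each array left out. The 1 clone kept per gene was that with the highest mean ratio of skin over embryo, which need not be typical of the gene's clones.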

Additional observations from a re-analysis of the deposited data

Results flagged for a closer look

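Some member features without a value on all arrays, which the comparisons above do not use, were separated from normal skin in both directions. Of 19 incomplete features, 14 had at least 2 values in each of lymphedema and normal skin, and of these 2 lay above every normal array in lymphedema skin and 5 below, while in sham skin 1 lay above and 1 below. A clone of Mybpc3, cardiac myosin binding protein C, was higher in lymphedema than in normal skin by 0.538, with values of −1.54 and −1.02 on 2 lymphedema arrays against −1.80, −1.77 and −1.88 on 3 normal arrays. The same Mybpc3 clone was higher in sham than in normal skin by 0.65, with sham values of −1.28, −1.45 and −0.77. Another Mybpc3 clone ran the opposite way, with −0.33, −0.16 and −0.01 on the lymphedema arrays against 0.45 and 0.25 on 2 normal arrays. A clone of Tnni3, cardiac troponin I, was higher in lymphedema than in normal skin by 0.577, with −1.09, −1.0 and −1.26 on 3 lymphedema arrays against −2.02 and −1.37 on 2 normal arrays, while the Tnni3 gene value over its complete clones differed by −0.06. The clones below every normal array in lymphedema skin belonged to Atp2a2 (−1.27), Pvalb (−0.893), Actc1 (−0.543), Mybpc3 (−0.515) and Myh7 (−0.405), and the one below it in sham skin was that of Actc1 (−0.366). The Atp2a2 clone read 0.55, 0.08 and 0.09 on the lymphedema arrays against 1.31 and 1.72 on 2 normal arrays. None of these differences was tested. Groups of 2 values separate more readily than groups of 3. The share separated over all incomplete features was not counted, so these counts are not read as a result.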

How the results depend on the processing

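The sham differences of Tnnc2, Tcap, Myl1, Tnnt3 and Atp2a1 kept their sign in every alternative that held them, and none was called. Between lymphedema and normal skin 12 of 21 named members kept their sign throughout, and between sham and normal skin 16 of 21 did. The lymphedema count of 1 member became 0 with uncentered arrays, quantile normalization, the looser rule of 2 of 3 values in each group, removal of the features with the lowest ratios and the array set as a block. It was 2 after scaling to a common median absolute deviation (Myh9 and Myl6), 6 with arrays of the 2 groups only (Myh9, Myh10, Myl3, Myl6, Myl9 and Myl12b), 13 in SAM, and 0 to 6 over left-out arrays, where the 6 came without sham array 3. Calls over all 8644 genes moved too, with 297 in the reported fit, 347 after scaling, 842 with the 2 groups only, 623 without sham array 3 and 0 with the array set as a block. With 1 clone per gene the called gene was Myh10. The lymphedema median of 0.399 was 0.112 after scaling, 0.042 after quantile normalization and 0.07 without the features of lowest ratio, which left 13 members and no fast one, and 0.338 to 0.45 over left-out arrays. The fast median between lymphedema and normal skin turned to −0.244 after scaling and −0.023 after quantile normalization, and was 0.026 to 0.553 over left-out arrays, lowest without lymphedema array 3. The fast median against sham skin was −0.483 without sham array 3. The sham median of 0.392 was 0.01 without the features of lowest ratio and 0.156 to 0.488 over left-out arrays, lowest without sham array 3. Against sham skin, scaling called 1 member, Tnnc2 (−2.15), and the lymphedema median of 0.034 turned to −0.268 after scaling and −0.202 after quantile normalization, with −0.087 to 0.233 over left-out arrays. The cause was not tested.

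Replicate numbers in the labels did not pair the arrays, since deviations of arrays with the same number correlated from −0.244 to 0.279 across genes. With the replicate block, 0 members were called between lymphedema and normal skin, and the medians stayed at 0.399 and 0.392. Arrays were not enough to set the sham contrast apart from the array set other than through lymphedema skin, and signal over background was not used here.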
